A study of Mus musculus with 2 samples.

Results

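The genes described here encode the proteins of the cytoplasmic ribosome. They were chosen by symbol alone, as every counted gene named Rps or Rpl with a number, with p0 to p2 or with a, and with at most a closing a, l or x. This rule found 80 genes of the 33207 in the deposited tables, of which 31 are named Rps, after the small ribosomal subunit, and 49 are named Rpl, after the large one. It leaves out genes of the same structure with other names, such as Rps3a1, Fau and Rack1. Of the 80 members, 77 had at least 100 UMIs (unique molecular identifiers, which count captured RNA molecules) in every comparison below. Rpl3l, Rpl10l and Rpl39l did not.

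The cells came from mouse embryos of the genotype Egr2Cre/+, Rosa26RTom, at embryonic days E11.5 and E12.5, with 1 droplet library per stage. In these embryos Cre recombinase from the Egr2 (Krox20) locus switches on the red protein Tomato in Egr2-expressing cells and leaves it on in their progeny, so sorted cells are a lineage and need not express Egr2 any longer. The label gives meninges as tissue and boundary cap cells as cell type, and the protocol adds dorsal root ganglia. Both libraries were sorted for Tomato, without a Tomato-negative library or a second genotype, and each library pools the sorted cells of the embryos of 1 litter, as the study describes it. Stage, litter and library therefore cannot be told apart, nothing below carries a p-value, and every interval (95%) covers counting error only.

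Each ribosome is built from a small subunit, which reads the messenger RNA, and a large subunit, which joins amino acids. The ribosomal proteins are needed in near-equal numbers, and their messenger RNAs are among the most abundant of any growing cell. Most of these messengers begin with a C followed by a run of pyrimidines, the 5′ terminal oligopyrimidine (TOP) feature, through which the mTOR pathway controls their translation together. In the peripheral nervous system, Sox10 marks neural crest and glial cells, Neurog1 drives the birth of sensory neurons, and Isl1 is carried by the neurons that result.

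The E11.5 library kept 833 cells with 9541971 UMIs (median 11601 per cell), and the E12.5 library kept 3496 cells with 22456846 UMIs (median 6140). The libraries have 9 barcode sequences in common. Egr2 itself had a UMI in 15.6% of cells at E11.5 against 8.38% at E12.5, and Prss56, the other boundary cap gene of the study, in 16.3% and 15.4%. Foxc1, a transcription factor of the meninges, had a UMI in 3.48% and 2.95% of cells. Most cells of both libraries therefore had no UMI of the genes that define the labelled cell type. These percentages were not matched for depth, so they do not compare levels between the libraries. Scaled to the library total (CPM, explained below), Egr2 was at 19.07 at E11.5 and 16.97 at E12.5. Prss56 was at 36.58 and 84.65 CPM, and Foxc1 at 4.611 and 6.012.

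Ribosomal protein genes were among the most abundant of all molecules counted. Their share was 25.44% of UMIs at E11.5 against 22.09% at E12.5. In single cells the median share was 25.89% at E11.5, with quartiles of 23.05% and 27.80%, and 22.64% at E12.5, with quartiles of 19.02% and 25.67%. The lowest and highest cells were at 6.478% and 41.07% at E11.5, and at 2.675% and 38.42% at E12.5. The spread between cells of 1 library was thus wider than the gap between the libraries.

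Cells were placed in classes by at least 1 UMI of a marker. At E11.5 the members held 26.38% of UMIs in 517 Sox10-positive cells, 25.94% in 281 Neurog1-positive cells and 24.87% in 307 Isl1-positive cells. At E12.5 they held 23.96% in 1499 Sox10-positive cells, 23.38% in 644 Neurog1-positive cells and 20.39% in 1623 Isl1-positive cells. Isl1-positive cells were lowest in both libraries. With each cell thinned to 2000 UMIs they stayed lowest, at 24.14% (E11.5) and 20.09% (E12.5), but at E12.5 Neurog1-positive cells (24.02%) then stood slightly above Sox10-positive cells (23.86%).

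These classes overlap, so cells were also split into the 8 combinations of the markers. At E11.5 the share was 25.89% in 343 cells with Sox10 alone, 27.53% in 70 cells with Sox10 and Neurog1, 24.00% in 139 cells with Neurog1 and Isl1, and 22.64% in 64 cells with Isl1 alone. At E12.5 the same combinations held 23.95% (1126 cells), 25.47% (87 cells), 22.23% (415 cells) and 18.51% (922 cells). In both libraries cells with Sox10 and Neurog1 stood above cells with Sox10 alone, and cells with Isl1 alone stood lowest of these 4.

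The cells with UMIs of Neurog1 and neither other marker held 27.64% at E11.5, from only 7 cells, and 26.61% at E12.5, from 55 cells. Cells with all 3 markers held 27.72% (65 cells) and 24.53% (87 cells). Cells with Sox10 and Isl1 held 25.69% (39 cells) and 23.01% (199 cells), and cells with no UMI of any marker held 23.09% (106 cells) and 22.75% (605 cells). A deep cell meets more markers than a shallow one, so these classes too were set again after thinning, which left out 165 cells at E12.5 and none at E11.5. Sox10 with Neurog1 then stood at 28.37% (14 cells) and 26.03% (23 cells), against 25.57% (240 cells) and 23.84% (715 cells) with Sox10 alone. Isl1 alone was at 24.28% (128 cells) at E11.5 against 19.59% (1063 cells) at E12.5. At E11.5 this turned the order of cells with Isl1 alone and cells with Neurog1 and Isl1, which were at 23.56% (73 cells).

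**Figure D1:**
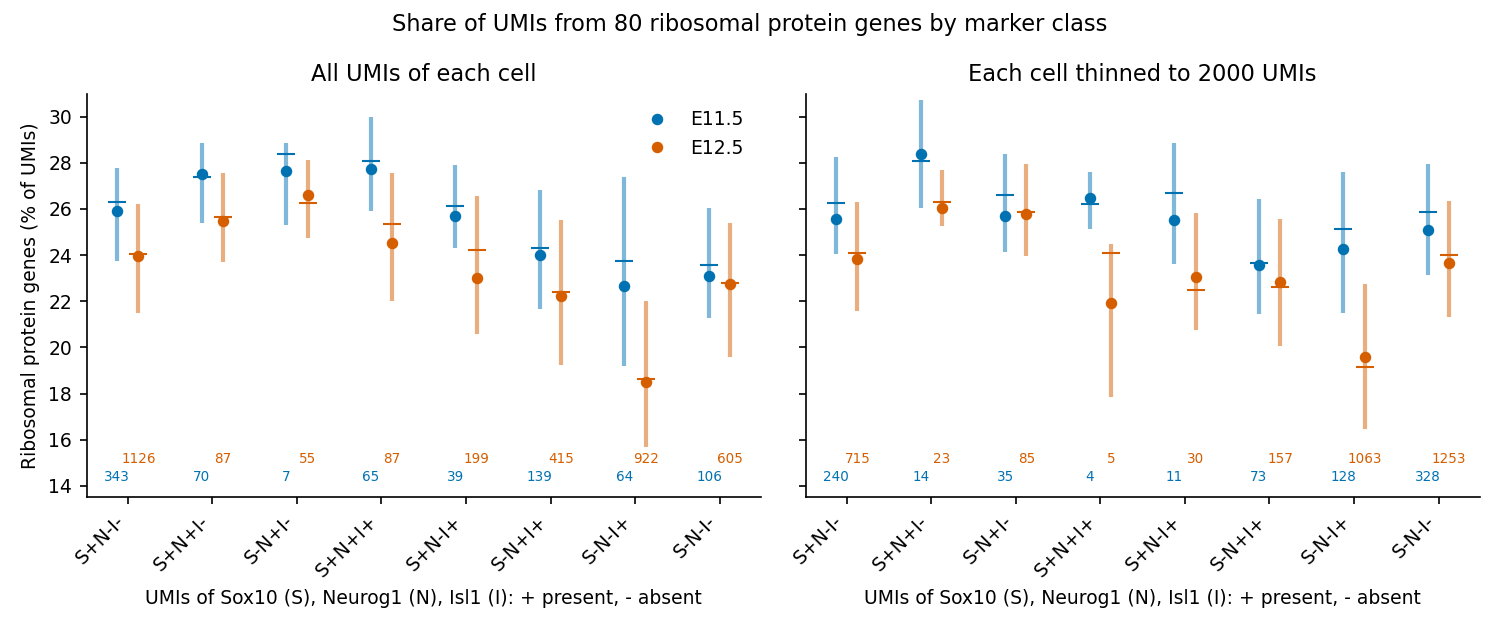
Share of UMIs from the 80 ribosomal protein genes (y axis, percent, starting above 0) in the 8 marker combinations (x axis), at full depth on the left and after thinning to 2000 UMIs on the right. Dots are summed shares, ticks and bars are the median and quartiles over cells, and the numbers are cells, blue for E11.5 and orange for E12.5. The lowest summed share is 18.51%, in E12.5 cells with Isl1 alone.

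Gene by gene, the neuronal and the glial side were set against each other in exclusive classes. Isl1-only cells have Isl1 without Sox10 (203 cells at E11.5, 1337 at E12.5), and Sox10-only cells have Sox10 without Isl1 (413 and 1213 cells). The members held 26.20% of Sox10-only UMIs and 23.60% of Isl1-only UMIs at E11.5, a ratio of 0.901. At E12.5 they held 24.09% and 19.66%, a ratio of 0.816. In absolute numbers a Sox10-only cell held on average 3211 member UMIs of 12256 at E11.5 against 1555 of 6455 at E12.5. An Isl1-only cell held 2708 of 11471 and 1331 of 6769. Isl1-only cells at E12.5 thus had fewer member UMIs than Sox10-only cells of the same library although they had more UMIs in all.

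The classes carried the markers that their names call for. Over 10 glial markers the summed level was 3286 CPM (UMIs scaled to the class total, as counts per 1000000) in Sox10-only cells against 256.4 in Isl1-only cells at E11.5, and 5944 against 377.2 at E12.5. Over 10 neuronal markers it was 401.1 against 10718 and 447.2 against 12563. The glial list includes Sox10 and the neuronal list Isl1, which define the classes, so part of these gaps was fixed in advance. Other lists moved with the classes as well. Apart from the settings given for globins here and for Malat1 at the end, their part in the member share was not tested. Malat1 and Meg3, RNAs of the nucleus, summed to 4616 CPM in Sox10-only and 9122 in Isl1-only cells at E11.5, and to 6598 and 10106 at E12.5. The 6 mesenchymal markers summed to 197.4 and 26.62 at E11.5, then to 464.8 and 57.02 at E12.5, with 1 of the 6 at 0 in Sox10-only cells of each library. Pericyte, endothelial and myeloid lists summed to at most 42.51 CPM in any of these classes. The 8 genes of dissociation stress were at 635.2 and 438.9, and at 1034 and 497.7. Globins stood at 581.5 CPM in E12.5 Isl1-only cells against 12.26 in Sox10-only cells, but a single cell held 98.88% of them, and without it the share ratio was 0.817. Mitochondrial UMIs lay between 1.438% and 1.618% in these 4 classes.

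The lower share in Isl1-only cells was spread over nearly all members. At E11.5, 69 of 77 members had a CPM ratio of Isl1-only over Sox10-only cells below 1, with a median of 0.890, beside 57.7% below 1 and a median of 0.922 over the 7658 genes with 100 UMIs. At E12.5, 76 of 77 members were below 1, with a median of 0.824, beside 55.9% and 0.929 over 10415 genes. Few single members moved far. At E11.5 none was past 1.5-fold in either direction, while 40.1% of all genes were, 15.2% higher and 24.9% lower. At E12.5, 2 members were past 1.5-fold, both lower, while 47.3% of all genes were, 19.1% higher and 28.1% lower. These 2 were Rps12 and Rps20. Small and large subunit genes had close medians, of 0.890 (31 Rps) and 0.890 (46 Rpl) at E11.5, and 0.815 and 0.826 at E12.5.

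Rps12, a small subunit protein through which fly cells compare their ribosome content with that of their neighbours, was the lowest at E12.5. It stood at 3073 CPM in Sox10-only and 2200 in Isl1-only cells at E11.5, and at 2617 and 1514 at E12.5, ratios of 0.716 (0.694 to 0.739) and 0.579 (0.566 to 0.591). Rps20, also of the small subunit and mutated in mice with dark skin, went from 2829 to 2222 at E11.5 and from 2612 to 1729 at E12.5, ratios of 0.786 and 0.662. The level was lower in Isl1-only cells in each library for both genes. Rpl12, which forms the base of the stalk of the large subunit, had ratios of 0.710 and 0.667, and Rplp1, a stalk protein that helps recruit elongation factors, 0.752 and 0.713. Rpsa, the small subunit protein also known as the laminin receptor, had 0.765 and 0.753.

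The other stalk genes were not lowest in both libraries. Rplp0, the stalk's anchor, stood at 6701 CPM in Sox10-only and 5582 in Isl1-only cells at E11.5, and at 7288 and 4915 at E12.5, ratios of 0.833 and 0.674. Rplp2, the partner of Rplp1, had 0.873 and 0.826. The stalk proteins of 1 complex thus spanned a range of ratios at each stage.

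At the other end stood members at near-equal levels in the classes. Rps3, at the channel where messenger RNA enters the small subunit, was at 3551 CPM in Sox10-only and 3753 in Isl1-only cells at E11.5, and at 3339 and 3285 at E12.5, ratios of 1.06 and 0.984. Rpl27, of the large subunit, was at 2265 and 2337 at E11.5 and at 2135 and 2214 at E12.5. Its ratio of 1.04 (1.02 to 1.06) at E12.5 was the only member ratio above 1 in that library. Rpl35, by the exit of the peptide tunnel, had 1.04 and 0.977, and Rps14 had 1.11 and 0.945. Of the 77 members, 72 had a lower ratio at E12.5 than at E11.5.

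Across the 77 members the log2 ratios of the 2 libraries went together, with Pearson's r = 0.735 and Spearman's rho = 0.704. These points are genes, which share their cells, depth and classes within a library, and are no replicates. Below the median member ratio in both libraries were 26 members, above it in both were 26, and 23 changed sides, with 2 at the median itself. The SD of the log2 ratio over members was 0.139 at E11.5 against 0.152 at E12.5.

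**Figure D2:**
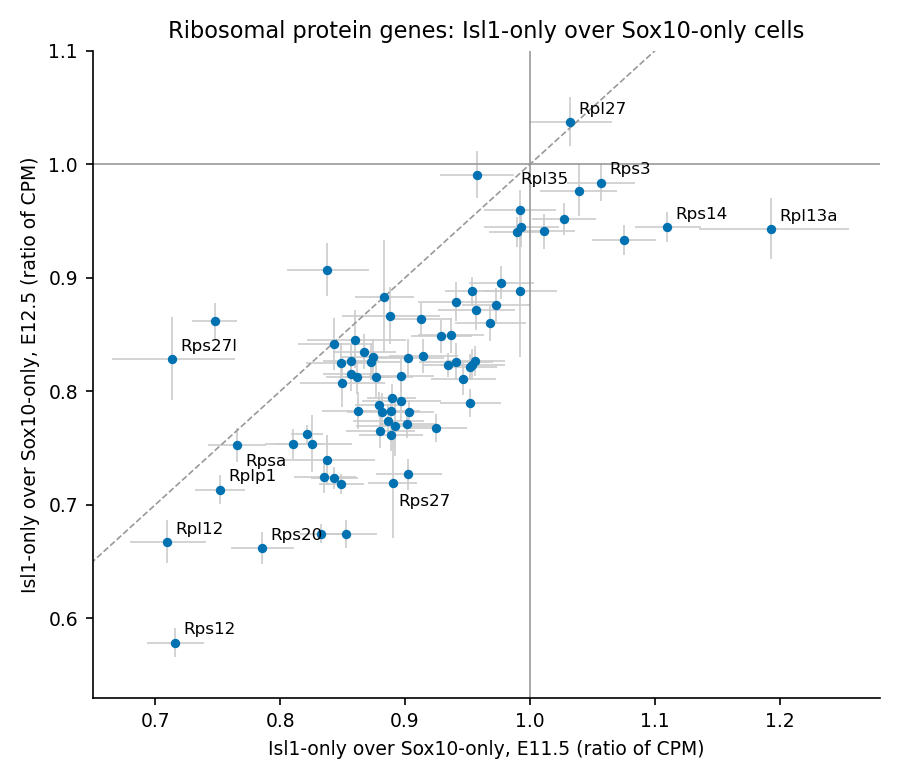
CPM ratio of Isl1-only over Sox10-only cells for 77 ribosomal protein genes, E11.5 on the x axis and E12.5 on the y axis, with 95% counting intervals. Solid lines mark a ratio of 1 and the dashed line equal ratios. In all, 72 of 77 points lie below the dashed line, with Rps12 lowest at E12.5 and Rpl13a farthest right.

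Other members are known from mouse mutants and human anaemias, as is Rps20 above. Rps19, the gene most often mutated in Diamond-Blackfan anaemia, had class ratios of 0.903 and 0.782. Rpl5 and Rpl11, which with a small ribosomal RNA bind and hold back Mdm2, had 0.888 and 0.866, and 0.861 and 0.813. Rpl24, mutated in the belly spot and tail mouse, had 0.957 and 0.871, Rpl27a 0.874 and 0.830, and Rps7 0.968 and 0.860. Rpl38, mutated in the tail short mouse, was at 2612 CPM in Sox10-only and 2500 in Isl1-only cells at E11.5, and at 2092 and 2073 at E12.5. It had ratios of 0.957 and 0.991. Rps27a, made as a fusion with ubiquitin, had 0.879 and 0.788, and the X-linked Rps4x 0.952 and 0.789.

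The 4 lists of related genes, taken whole, gave a background to the members. Beside the counts below, 24.9% of all genes were past 1.5-fold lower and 15.2% higher at E11.5. At E12.5 these shares were 28.1% and 19.1%. Of 15 genes outside the ribosome whose RNAs belong to the TOP class, mostly translation factors but also Npm1, Hnrnpa1, Nap1l1 and the non-coding Gas5, 1 was past 1.5-fold lower in Isl1-only cells at E11.5 against 2 at E12.5, with none higher and medians of 0.952 and 0.858. Below 1 were 9 of the 15 at E11.5 and 12 at E12.5. Eef1d, a subunit of the exchange complex of elongation, had 0.461 and 0.337, and Pabpc1, which binds poly(A) tails, 0.701 and 0.545. Eef2 (1.22 and 1.11) and Hnrnpa1 (1.15 and 1.24) went the other way. Of the ribosome biogenesis genes, 4 of 19 were lower and 1 higher at E11.5, and 2 of 20 lower and 1 higher at E12.5, with medians of 0.835 and 0.973. Dkc1, which modifies ribosomal RNA, had 0.595 and 0.557, and Rrn3, which brings RNA polymerase I to its promoter, 1.88 and 2.55. The mitochondrial ribosomal protein genes, which serve a separate ribosome, had medians of 0.901 (76 genes, 5 lower and 1 higher) and 0.974 (77 genes, 4 lower and 3 higher). Of the regulators, 1 of 11 was lower and 1 higher at E11.5, and 1 of 12 lower and 2 higher at E12.5. Eif4ebp1, a repressor of cap-dependent translation under mTOR, had 0.303 and 0.290, and Mycn, a driver of ribosome production, 1.97 and 3.88. The medians of the regulators were 1.04 and 1.15. At E12.5 the median of the cytoplasmic members (0.824) was thus below those of all 4 lists. At E11.5 it was 0.890, which is above that of the ribosome biogenesis genes.

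Depth and the cell cycle moved with the share. Split into 3 equal groups by depth, E12.5 Isl1-only cells held 21.46% (median 4595 UMIs), 21.07% (6475 UMIs) and 17.94% (9196.5 UMIs). E12.5 Sox10-only cells held 23.68%, 24.40% and 24.05%. At E11.5 the groups of Isl1-only cells were at 24.59%, 24.13% and 22.86%, and those of Sox10-only cells at 25.82%, 26.29% and 26.25%. The rank correlation of share and depth over cells was -0.126 and -0.222 in Isl1-only and 0.136 and 0.103 in Sox10-only cells. Cells with at least 2 of 6 cycling genes were then set beside the others after thinning, each at 2000 UMIs. Cycling Sox10-only cells held 25.29% at E11.5 against 26.11% in the others, and 22.92% at E12.5 against 24.47%. Cycling Isl1-only cells held 24.52% against 23.92%, and 22.72% (88 cells) against 19.80% (1132 cells). The sign of this gap was opposite in the classes, a difference that was not tested.

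In terms of level, the members with at least 100 UMIs spread widely, from 661.7 CPM (Rps27l) to 11598 (Rpl41) in Sox10-only cells at E11.5. In Sox10-only cells Rpl41, whose product is the shortest of the ribosome, was highest with 11598 CPM at E11.5 against 9947 at E12.5. Rplp0 followed with 6701 and 7288, and Rpl13 with 5908 and 6904. Among the 5 highest were also Rps29 (5411 CPM) at E11.5, and Rps19 (5956) and Rpl32 (5862) at E12.5. Capture by the 3′ end counts molecules of a gene once whatever its length, so these CPM were not divided by length.

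The largest departures between the libraries fell on a few members. In Sox10-only cells the share ratio of E12.5 over E11.5 was 0.919, and in Isl1-only cells 0.833. Of the Isl1-only cells, 139 of 203 had Neurog1 at E11.5, but only 415 of 1337 at E12.5. The share went from 24.00% to 22.23% in those with Neurog1, and from 22.64% to 18.51% in those without. What the change of mix did to the Isl1-only ratios was not tested. Member by member, 8 of 77 were past 1.5-fold lower at E12.5 in Sox10-only cells and none was higher, while 15.4% of all 9430 genes were past 1.5-fold, 12.1% higher and 3.26% lower. In Isl1-only cells 8 of 77 were lower and none higher, while 16.4% of all 8712 genes were past it, 11.2% higher and 5.18% lower. The same 8 members were past it in both classes, namely Rps27, Rpl9, Rpl10, Rpl36a, Rps10, Rps2, Rpl21 and Rpl35. The median member ratio was 0.965 in Sox10-only cells (1.06 over all genes) and 0.875 in Isl1-only cells (1.04 over all genes). In Isl1-only cells 74 of 77 members were below 1, with Rpl34 and Rpl13a among the exceptions, and in Sox10-only cells 47 of 77 were, beside 43.0% and 41.3% of all genes.

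The 8 members held 2.590% of Sox10-only UMIs at E11.5 against 0.858% at E12.5, a loss of 1.73 percentage points of the 2.11 points that all members lost. In Isl1-only cells they went from 2.274% to 0.736%, or 1.54 of 3.95 points. Without them, the other 72 members held 23.61% and 23.23% of Sox10-only UMIs (ratio 0.984) and 21.33% and 18.92% of Isl1-only UMIs (ratio 0.887). The ratio of the other members was thus closer to 1 than that of all members in both classes, and further below 1 in Isl1-only cells. The 8 were picked on the same ratios, so this is a description of where the difference lay.

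Rps27, a zinc-binding protein of the small subunit, was named in the choice of members for its departure, so its values are a description. Over all kept cells it stood at 5188 CPM (49505 UMIs) at E11.5 and at 197.5 CPM (4435 UMIs) at E12.5, which is 26.3-fold lower. In Sox10-only cells it went from 5333 to 227.2 CPM, and in Isl1-only cells from 4746 to 163.4. With every cell thinned to 2000 UMIs it had a UMI in 100% of cells at E11.5 but in 32.2% at E12.5. Its level was thus lower at E12.5 in both classes. The Rps27 ratio of Isl1-only over Sox10-only cells was 0.890 at E11.5, level with the member median of 0.890. At E12.5 it was 0.719, below the member median of 0.824 and the lower quartile of 0.770.

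Rpl9, of the large subunit, went from 2776 to 207.0 CPM over all kept cells (ratio 0.0746), and Rpl10, which joins the large subunit last and is X-linked, from 3593 to 299.7 (ratio 0.0834). After thinning, Rpl9 had a UMI in 99.4% and 33.1% of cells, and Rpl10 in 99.8% and 45.1%. The other 5 fell less far. Rpl36a, X-linked and close to the site where spent transfer RNA leaves, went from 2069 to 793.1 CPM, and Rps10, which is ubiquitinated when ribosomes collide, from 1744 to 870.2. Rps2, by the messenger RNA entry of the small subunit, went from 4693 to 2751, Rpl21 from 2165 to 1237, and Rpl35 from 2696 to 1692.

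The ratios in Sox10-only cells of the members just past the 1.5-fold line were 0.572 for Rps2, 0.581 for Rpl21 and 0.645 for Rpl35. Short of it were Rplp2 with 0.755, Rps18 with 0.790 and Rps29 with 0.799. At the upper end stood Rpl13a, which also takes part in silencing of inflammatory messengers, with 855.1 CPM at E11.5 against 1160 at E12.5 (ratio 1.36). Rps14 (1.17), Rpl13 (1.17) and Rpl39 (1.15, X-linked) followed.

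**Figure D3:**
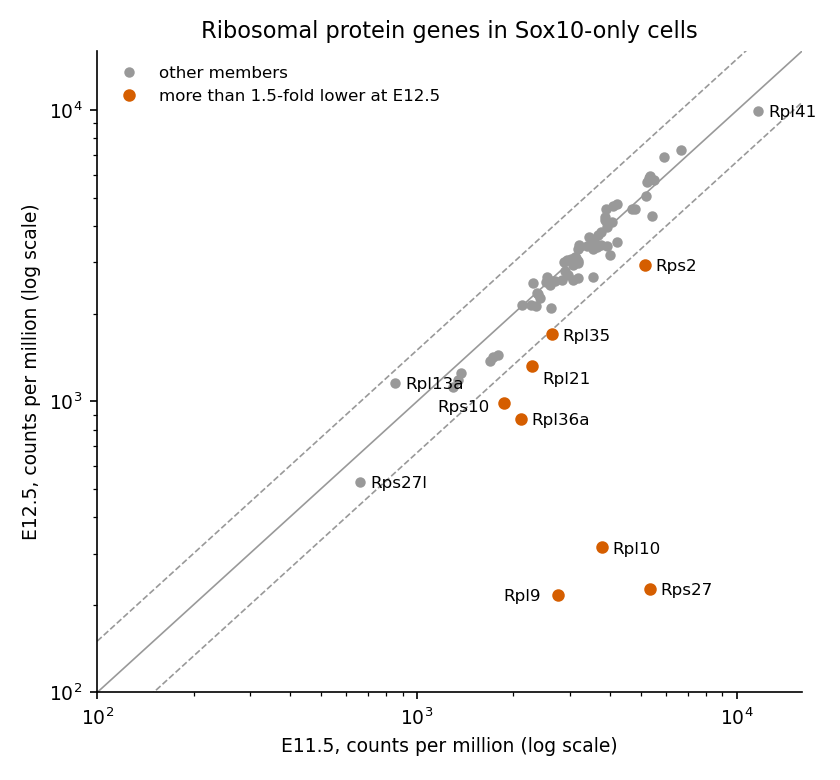
Level of 77 ribosomal protein genes in Sox10-only cells, E11.5 on the x axis and E12.5 on the y axis, in CPM on log scales. The solid line marks equal levels and the dashed lines 1.5-fold. Rps27, Rpl9 and Rpl10 lie more than 10-fold below the solid line, and 5 further members lie under the lower dashed line.

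Each of the 3 members with the lowest ratios has a counted copy elsewhere in the genome with the same or nearly the same coding sequence. The positions are those of GENCODE M39 on GRCm39. Rps27 lies at chr3:90119819-90120977 (minus strand) and its copy Rps27rt at chr9:114811434-114811807 (minus strand). Their coding sequences of 255 bases differ at 0 positions. Rpl9 lies at chr5:65540227-65548804 (minus strand) and Rpl9-ps6 at chr19:32443265-32443978 (minus strand). Their 579 coding bases differ only by G266A, counted from 1 at the A of the start codon, with the base of Rpl9 first. Rpl10 lies at chrX:73314418-73316741 (plus strand) and Rpl10-ps3 at chr9:50255501-50256268 (minus strand). Their 645 coding bases differ at 0 positions. The annotation calls all 3 copies protein coding.

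A stretch of 90 coding bases of each pair is shown for their likeness. The stretches are bases 166 to 255 of Rps27, 266 to 355 of Rpl9 and 556 to 645 of Rpl10, written 5′ to 3′ with the base that differs in capitals.
Rps27: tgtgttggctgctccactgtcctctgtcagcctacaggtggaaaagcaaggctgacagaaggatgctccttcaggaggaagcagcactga
Rps27rt: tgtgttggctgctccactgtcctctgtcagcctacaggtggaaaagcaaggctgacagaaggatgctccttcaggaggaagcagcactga
Rpl9: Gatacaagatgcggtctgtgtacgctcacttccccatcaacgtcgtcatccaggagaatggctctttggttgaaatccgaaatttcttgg
Rpl9-ps6: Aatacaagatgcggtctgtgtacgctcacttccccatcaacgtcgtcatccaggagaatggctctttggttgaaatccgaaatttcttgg
Rpl10: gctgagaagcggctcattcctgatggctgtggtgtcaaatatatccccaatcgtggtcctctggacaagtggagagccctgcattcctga
Rpl10-ps3: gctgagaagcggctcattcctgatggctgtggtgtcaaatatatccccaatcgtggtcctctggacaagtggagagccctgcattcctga

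The copies went the other way between the libraries. Rps27rt stood at 142.6 CPM over all kept cells at E11.5 and at 838.5 at E12.5 (ratio 5.88). Rpl9-ps6 went from 63.61 to 1042 CPM (ratio 16.4), and Rpl10-ps3 from 154.8 to 1143 (ratio 7.39). Of the UMIs of gene and copy together, Rps27rt held 2.676% at E11.5 against 80.94% at E12.5, Rpl9-ps6 2.240% and 83.43%, and Rpl10-ps3 4.130% and 79.23%. At E11.5 the gene thus held nearly all UMIs of each pair, and at E12.5 the copy held most.

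The sums were still lower at E12.5. Rps27 with Rps27rt was at 5331 and 1036 CPM (ratio 0.194), Rpl9 with Rpl9-ps6 at 2840 and 1249 (ratio 0.440), and Rpl10 with Rpl10-ps3 at 3748 and 1443 (ratio 0.385). Each of these ratios was higher than that of the member alone. Other counted genes that share sequence with a member, such as Ide with Rpl10, were not added.

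Similar pairs were seen for 3 more of the 8 members. Rpl36a-ps1 went from 32.17 to 311.8 CPM, and with Rpl36a the sum had a ratio of 0.526. Gm2000, a copy of Rpl35, went from 737.1 to 1349 CPM, and with Rpl35 the sum had a ratio of 0.886. BC004004, which shares sequence with Rpl21, went from 169.8 to 386.5 CPM, and the sum had a ratio of 0.695. For Rps10 and Rps2 no such counterpart was seen among the counted genes, and copies that are not counted were not searched for. Gm49804, which overlaps Rps10 at the same locus, had 2 and 10 UMIs, and Coq10b, which shares a short stretch with Rps2, was at 25.89 and 30.50 CPM.

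**Figure D4:**
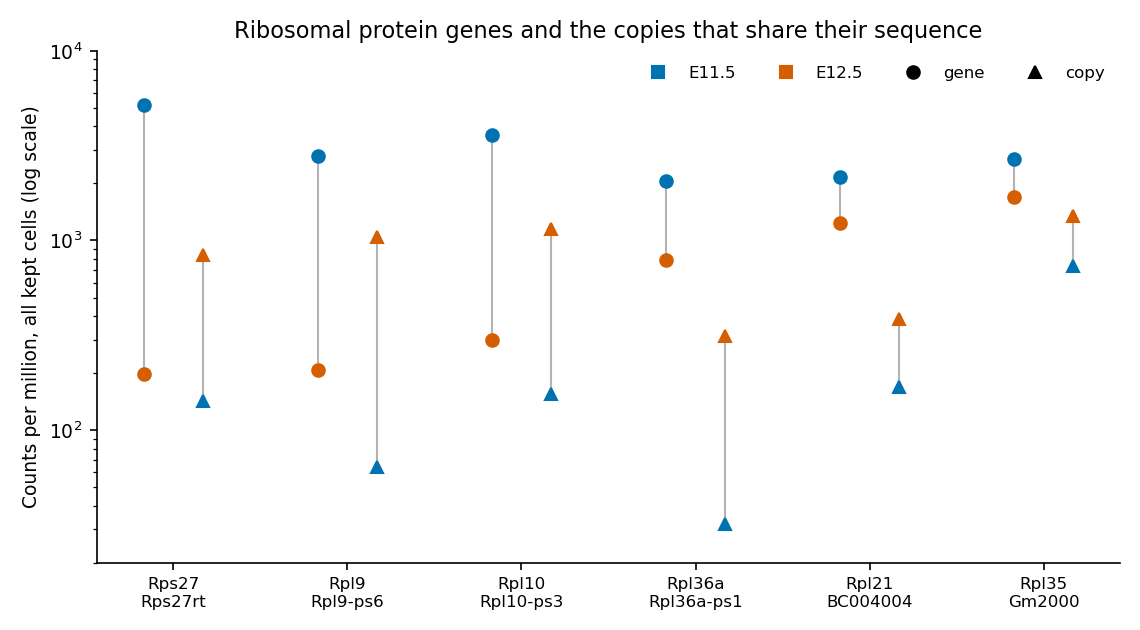
Level of 6 members (circles) and of the copies that share their sequence (triangles) over all kept cells, in CPM on a log scale, blue for E11.5 and orange for E12.5. In all 6 pairs the member is lower and the copy higher at E12.5, as for Rps27 (5188 and 197.5) and Rps27rt (142.6 and 838.5).

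Shared sequence was then measured for all members, a step that was added after these values had been seen. For each member, a window of at most 400 bases that ends 60 bases past the stop codon was cut into all its stretches of 50 bases, and a stretch was called shared if it occurs letter for letter in a transcript of another counted gene. Of 44 members with no shared stretch, 0 were past 1.5-fold lower in Sox10-only cells, beside 3.26% of all genes. The ratios of these 44 ran from 0.799 to 1.17. Of 16 members with over 0 to 40% shared, 1 was past 1.5-fold lower (Rps2). Of 17 with over 40% shared, 7 were. These 17 include Rps10, Rpl24 and Rpl13a, whose partners overlap them at the same locus. Over the 77 members Spearman's rho of percent shared and ratio was -0.364, a description over genes of the same 2 libraries. With stretches of 98 bases the counts were 1 of 53, 1 of 13 and 6 of 11, and rho was -0.385.

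Not every member with much shared sequence was past 1.5-fold. Rpl10a shared 99.01% of its 98-base stretches with Akr1cl, and its level was 2522 and 2243 CPM (ratio 0.889). Rpl24 shared 59.08% with Gm28037 and was at 2359 and 2227 CPM (ratio 0.944), and Rpl13a shared 88.12% with Gm45713 and was the member with the highest ratio. In these 3 cases the partner was at most at 1.425 CPM in either library. Gm28037 and Gm45713 overlap Rpl24 and Rpl13a on the same strand, so they are not copies elsewhere in the genome. Rps18, also short of 1.5-fold, shared 43.89% of its 98-base stretches, and its copies were higher at E12.5. In Sox10-only cells Rps18 went from 4015 to 3170 CPM, Rps18-ps5 from 119.9 to 599.1 and Rps18-ps6 from 147.0 to 377.3. The pattern of a lower member and a higher copy was thus not confined to the 8 departing members. How reads that match several genes were handled in each library was not tested, since no reads were used, and the cause of the difference between the libraries was not tested either.

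**Figure D5:**
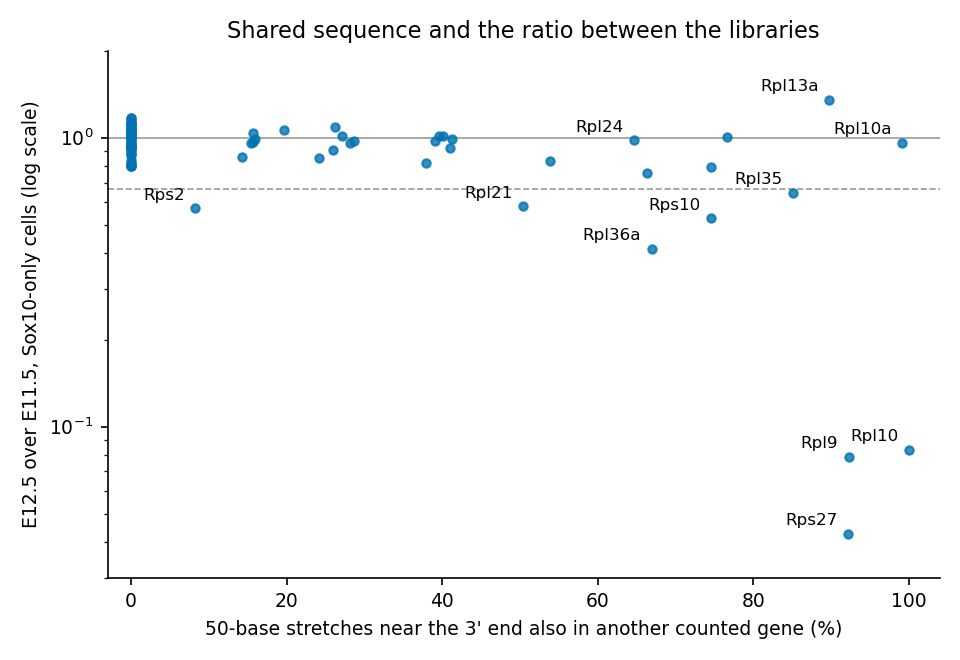
Percent of 50-base stretches near the 3′ end of a member's coding sequence that also occur in another counted gene (x axis) against its ratio of E12.5 over E11.5 in Sox10-only cells (y axis, log scale), for 77 members. The solid line marks a ratio of 1 and the dashed line 1.5-fold lower. Rps27, Rpl9 and Rpl10 lie at the lower right, and the members at 0% stay between 0.799 and 1.17.

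Among the members themselves, the paralogs Rpl3l, Rpl39l and Rpl10l were scarce. Paralogs outside the rule are not described here. Rpl3l, a paralog of heart and skeletal muscle, had 1 UMI at E11.5 against 11 at E12.5, and Rpl39l, a paralog of testis, 0 and 4. Rpl10l, an intronless paralog that stands in for Rpl10 in meiotic male germ cells, had 0 UMIs in 833 cells at E11.5, which allows a share of cells with a UMI of up to 0.360%, and does not limit the share that express the gene. At E12.5 it had 58 UMIs in 57 of 3496 cells, or 1.63% (exact binomial interval 1.24% to 2.11%). Against 3 UMIs at E11.5, the limit that a count of 0 allows, its level of 2.583 CPM was 8.21-fold higher. This value leaves out the counting error of the 58 UMIs. The lower limits of the counting interval of the Rpl10l ratio were 3.891 in Sox10-only and 1.201 in Isl1-only cells. Rps27l, a paralog of Rps27 under the control of p53, was at 595.1 CPM at E11.5 against 489.5 at E12.5, with a UMI in 94.4% and 88.5% of cells. In Isl1-only over Sox10-only cells it had ratios of 0.713 and 0.828, the reverse order of most members.

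The promoters of the members were searched for the start of a TOP feature, a C at the annotated start followed by at least 4 bases that are C or T, on the strand of the gene. The RefSeq promoter table (GRCm38.p6) held 60 of the 80 members. Of these, 13 (21.7%) had such a run at an annotated start, beside 2.91% of the 20499 counted genes with a promoter, and 28 (46.7%) had one that began within 5 bases of it, beside 21.7%. A set of 4 of the longest runs is shown with 10 bases before the start, and the run from the start on in capitals. In all 4 the bases directly before the start are C or T as well. Whether these runs act as a TOP feature was not tested.
Rpl15, chr14:18270972-18270996, minus strand: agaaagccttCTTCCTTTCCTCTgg
Rpl35, chr2:39005117-39005141, minus strand: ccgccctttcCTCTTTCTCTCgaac
Rps10, chr17:27635230-27635254, minus strand: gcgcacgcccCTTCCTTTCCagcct
Rps18, chr17:33955651-33955675, minus strand: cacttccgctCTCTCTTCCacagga
The class ratios of members with and without a run at the start lay together. At E11.5 the medians were 0.890 (13 members) and 0.902 (44 members), and at E12.5 they were 0.826 and 0.826. Annotated starts can lie some bases from the start in use, so a promoter without a run at this base is no evidence that the messenger lacks the feature.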

How the data were processed

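Single-cell libraries (10x Chromium, V2 reagents) were analysed from the deposited UMI counts. According to the methods, the authors aligned reads to mm39 with Cell Ranger 7.0.0 (the matrix header gives 7.0.1). Whether intronic reads were counted, and the read lengths, are not given in the sources used here. The deposited counts held 1431 barcodes with 10287595 UMIs at E11.5 and 3762 with 23460243 at E12.5. The filters of the methods were applied: cells over 10% mitochondrial UMIs, under 2000 (E11.5) or 1000 UMIs (E12.5), or with a Scrublet score of 0.2 or more were removed. Scores came from scanpy 1.11.5, not Scrublet 0.2.3, so the doublet calls may differ. These steps removed 179, 412 and 7 barcodes at E11.5, and 66, 133 and 67 at E12.5.

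Counts were summed per class and divided by the class total (CPM). Shares have exact binomial intervals and ratios exact conditional binomial intervals. Genes needed 100 UMIs over the classes compared, and 1.5-fold was the rule of size. With 1 library per stage, no test was run. The ratios and their intervals were run on simulated counts with counting error alone, where 95.31% of the intervals held the ratio that was set. Variation between cells or libraries was not simulated, so this says nothing about it.

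Members and lists were chosen with earlier results of these data known. Named genes were Rps27 and its paralogs, the highest members, the 5 farthest each way in class ratio in both libraries, those farthest in library ratio, and genes fixed by function. All 80 members and 32629 of 33207 counted genes were found in GENCODE M39. Some genes that this rule names are not reported here.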

Additional observations from a re-analysis of the deposited data

Results flagged for a closer look

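Rpl13a and Rps14 had opposite directions between the classes in the 2 libraries, higher in Isl1-only than in Sox10-only cells at E11.5 and lower at E12.5. The CPM ratio was 1.193 and 0.9431 for Rpl13a and 1.11 and 0.9446 for Rps14. Each counting interval excluded 1, but with 1 library per stage the difference itself was not tested. The barcodes removed by the cell filters, which were used only in the setting with all barcodes below, also held UMIs of the members. Their share was 18.69% at E11.5 (598 barcodes) and 20.99% at E12.5 (266 barcodes).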

How the results depend on the processing

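Of 87 values under other settings, 59 stayed within the counting interval of the value given above or within 1.5 times its count, 28 moved further, and none reversed. The Isl1-only over Sox10-only share ratio moved to 0.9126 and 0.8114 (E11.5 and E12.5) with 2 UMIs of a marker, 0.9338 and 0.8371 after thinning, 0.9067 and 0.8191 without mitochondrial genes and Malat1 in the total, and 0.8745 and 0.7727 without Neurog1-positive cells. As a median over cells it was 0.9115 at E11.5. The E12.5 over E11.5 share ratio moved, in Sox10-only and Isl1-only cells, to 0.9292 and 0.8429 with all barcodes, 0.9128 and 0.8116 with 2 UMIs of a marker, and 0.9115 and 0.8169 as a median over cells. Thinning gave 0.9292 in Sox10-only cells and a minimum of 2000 UMIs 0.8355 in Isl1-only cells. Of the settings chosen after seeing the data, leaving out the 8 departing members gave 0.9840 and 0.8871, and adding the copies gave 0.9382 and 0.8494. Members past 1.5-fold between the classes at E12.5 were 4 with 2 UMIs of a marker and 0 when scaled to the member total. Between the libraries in Isl1-only cells they were 5 when so scaled. The Rps27 ratio was 0.04384 when so scaled, 0.1943 with Rps27rt, 0.04261 in Sox10-only and 0.03443 in Isl1-only cells.

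No paired analysis was possible because each stage has 1 library. A second library per stage would be needed to tell stage from library, and depth limits the scarce paralogs, for which a count of 0 at E11.5 allows up to 0.360% of cells with a UMI.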
